A study of Mus musculus with 20 samples.

Results

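Barrier ceramide and lipoxygenase genes were measured by bulk RNA sequencing of cells sorted for tdTomato from mouse carcinomas, old epidermis and young epidermis. The carcinomas were cutaneous squamous cell carcinomas (cSCC). The 9 genes are Alox12b, Aloxe3, Cyp4f39, Elovl4, Cers3, Pnpla1, Abca12, Ugcg and Smpd1. They were chosen by name, as genes of the synthesis, transport and oxidation of the skin's acylceramides, out of 51123 Ensembl gene identifiers in the deposited count table, 48246 of which could be given a symbol. All 9 were found, all 9 passed the filter on low counts in every fit, and none was at 0 in any of the 20 libraries.

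The sorted cells came from 7 groups, whose samples the labels call biological replicates. The carcinomas arose spontaneously in mice with K14cre and floxed alleles, either of both Wwox and p53 (DKO cSCC, n = 3) or of p53 alone (PKO cSCC, n = 3), and the labels give no age for those mice. Old epidermis was wild type, from mice aged 400 days or more (WT old, n = 2). Young epidermis, from mice aged 100 to 120 days, was K14cre with floxed Wwox and p53 (DKO young, n = 3), with floxed p53 (PKO young, n = 3) or with floxed Wwox (WKO young, n = 3), or was wild type (WT young, n = 3). K14cre expresses Cre recombinase in keratinocytes, so deletion is restricted to cells in which that promoter is or was active. Wwox encodes a WW-domain oxidoreductase described as a tumour suppressor, and p53 is the product of Trp53. The wild-type samples are also labelled as tdTomato-positive, but their titles name no Cre transgene.

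The water barrier of the skin is formed in the outermost living layers of the epidermis. There an ultra-long fatty acid is elongated, hydroxylated at its far end, joined to a sphingoid base and esterified with linoleate to give an acylceramide, which is glucosylated and loaded into lamellar granules. After secretion, lipoxygenases oxidise the linoleate, and the lipid is attached to the proteins of the cornified envelope. Loss of many of these enzymes causes congenital ichthyosis in people and loss of water through the skin in mice.

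RefSeq promoters of 4 of the genes are shown because they cover the patterns described below: Abca12, Elovl4 and Pnpla1 were among the genes that moved together across libraries, and Smpd1 was not. Each is the 250 bases before the annotated start on build GRCm38.p6, written 5′ to 3′ on the strand of the gene. Abca12 is at chr1:71414911-71415160 on the minus strand, Elovl4 at chr9:83806306-83806555 on the minus strand, Pnpla1 at chr17:28858161-28858410 on the plus strand and Smpd1 at chr7:105554110-105554359 on the plus strand. Capitals mark matches to the KLF motif CCACCC on either strand.
Abca12: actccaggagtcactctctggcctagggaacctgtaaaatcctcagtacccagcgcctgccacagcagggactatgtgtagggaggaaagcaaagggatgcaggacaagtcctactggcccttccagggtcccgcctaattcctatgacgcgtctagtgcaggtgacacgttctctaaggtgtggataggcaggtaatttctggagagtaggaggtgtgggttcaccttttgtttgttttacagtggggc
Elovl4: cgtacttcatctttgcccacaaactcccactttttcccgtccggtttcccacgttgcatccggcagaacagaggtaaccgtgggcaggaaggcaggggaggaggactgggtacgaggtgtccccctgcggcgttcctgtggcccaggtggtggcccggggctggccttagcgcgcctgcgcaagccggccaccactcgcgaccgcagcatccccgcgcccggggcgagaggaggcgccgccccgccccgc
Pnpla1: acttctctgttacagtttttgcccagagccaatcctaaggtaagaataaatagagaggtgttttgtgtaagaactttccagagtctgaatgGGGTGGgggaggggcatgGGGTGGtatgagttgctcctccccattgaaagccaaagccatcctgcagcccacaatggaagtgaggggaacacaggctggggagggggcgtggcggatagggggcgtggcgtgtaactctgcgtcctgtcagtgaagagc
Smpd1: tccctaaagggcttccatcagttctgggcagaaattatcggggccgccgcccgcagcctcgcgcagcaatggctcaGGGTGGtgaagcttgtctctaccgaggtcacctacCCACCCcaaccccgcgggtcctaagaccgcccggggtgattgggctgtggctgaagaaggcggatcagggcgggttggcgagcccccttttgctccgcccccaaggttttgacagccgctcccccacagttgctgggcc
A promoter was read for 8 of the 9 genes, all but Aloxe3. The motifs of AP-1 (TGANTCA), grainyhead-like factors (AACCNGTT), KLF factors (CCACCC), C/EBP factors (TTGCNNAA, which includes TTGCGCAA), the E-box (CACGTG) and the TATA box (TATAAA) were searched on both strands, over the 250 bases before and the 50 bases after the start. Among all 32544 promoters of the table, 7.79% held the AP-1 motif, 2.09% the grainyhead-like motif, 31.6% the KLF motif, 10.8% the C/EBP motif, 7.17% the E-box and 13.6% the TATA box. Pnpla1 and Smpd1 each held 2 KLF matches upstream of the start. Pnpla1 also held a C/EBP match and Elovl4 an E-box, both in the 50 bases after the start that are not shown. The other 5 promoters, that of Abca12 included, held none of these motifs in the window, and nothing follows from that for any factor.

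Total counts ranged from 11930153 to 17199262 per library, and 18682 to 25735 identifiers had a count. Levels below are CPM, the estimated count relative to the library's total after TMM scaling of all 20 libraries, given in order of replicate number. The targeted genes went against the label in the library labelled DKO young 3, with 7.34 CPM of Wwox and 21.1 CPM of Trp53, and in the library labelled DKO cSCC 3, with 45.5 CPM of Trp53. The other DKO libraries had 0.444 to 1.88 CPM of Wwox, the library labelled DKO cSCC 3 included, and 2.74 to 3.31 CPM of Trp53, against 8.75 to 10.04 and 30.7 to 40.1 CPM in WT young epidermis. The libraries labelled PKO young 2 and 3 also went against the label, with 21.8 and 19.2 CPM of Trp53, and PKO young 1 had 5.91 CPM. The third value of each DKO group below is that of the library so labelled.

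Keratinocyte markers, the defining markers of the labelled cell type, differed widely among libraries. The 15 markers of differentiated keratinocytes summed to 16010 to 24990 CPM in DKO young epidermis, 1806 to 18060 CPM in PKO young epidermis and 11400 to 15230 CPM in WKO young epidermis, against 704.7 to 1690 CPM in WT young epidermis, and each had a count in all 14 epidermis libraries. The 12 markers of T cells, NK cells and dendritic epidermal T cells summed to 118 to 423.2 CPM in DKO young, 357.2 to 4594 CPM in PKO and 62.3 to 1261 CPM in WKO epidermis of the same age, against 2283 to 3149 CPM in WT young epidermis, again with none at 0. All 3 WT young libraries were below every other young library in the sum of differentiated keratinocyte markers, and above every other young library but PKO young 3 in that of T cell markers. In bulk RNA, fewer cells of a type and less RNA per cell cannot be told apart.

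Alox12b (ENSMUSG00000032807) encodes the lipoxygenase that adds oxygen to the linoleate of acylceramides. It had 1.70, 4.25 and 2.499 CPM in DKO carcinomas, 0.073, 0.116 and 7.67 CPM in PKO carcinomas, and 0.739 and 0.228 CPM in WT old epidermis. Among the young groups it had 5.43, 3.63 and 1.09 CPM in DKO, 0.677, 1.77 and 0.0478 CPM in PKO and 0.749, 0.889 and 0.571 CPM in WKO, against 0.109, 0.272 and 0.0564 CPM in WT libraries. The highest level of all was in a single PKO carcinoma, replicate 3, which stood far above the other PKO carcinomas. The WT young values rest on 2, 4 and 1 counts, so they carry large counting error.

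Aloxe3 (ENSMUSG00000020892) encodes the lipoxygenase that converts the product of Alox12b into an epoxyalcohol. It had 2.44, 1.93 and 5.45 CPM in DKO carcinomas, 1.31, 0.522 and 2.42 CPM in PKO carcinomas, and 7.72 and 2.36 CPM in WT old epidermis. Young libraries had 10.1, 11.7 and 4.17 CPM in DKO, 0.861, 4.71 and 0.526 CPM in PKO and 3.74, 4.52 and 5.71 CPM in WKO, against 0.491, 0.885 and 0.846 CPM in WT libraries. Every DKO and WKO young library lay above every WT young library, while 2 of the 3 PKO young libraries lay within the WT range and 1 above it.

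Cyp4f39 (ENSMUSG00000061126) is the mouse ortholog of human CYP4F22, which hydroxylates ultra-long fatty acids at the far end. It had 7.78, 8.43 and 17.3 CPM in DKO carcinomas, 1.90, 0.580 and 16.0 CPM in PKO carcinomas, and 23.6 and 6.99 CPM in WT old epidermis. The young groups gave 50.9, 34.8 and 26.6 CPM in DKO, 7.75, 30.3 and 4.02 CPM in PKO and 30.2, 20.9 and 30.1 CPM in WKO, against 2.24, 8.58 and 2.60 CPM in WT libraries. DKO and WKO young libraries overlapped each other and lay above all WT young libraries.

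Elovl4 (ENSMUSG00000032262) encodes the elongase that makes ultra-long fatty acids. It had 16.4, 24.7 and 106 CPM in DKO carcinomas, 11.2, 4.47 and 25.5 CPM in PKO carcinomas, and 113 and 35.8 CPM in WT old epidermis. In young skin there were 162, 112 and 135 CPM in DKO, 33.9, 146.5 and 13.97 CPM in PKO and 108, 113 and 92.8 CPM in WKO, against 23.6, 41.5 and 16.3 CPM in WT libraries. The lowest group mean was in PKO carcinomas, where all 3 libraries were below both WT old libraries, and the library labelled DKO cSCC 3 was the only carcinoma within the range of the young knockout groups of Wwox.

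Cers3 (ENSMUSG00000030510) encodes the ceramide synthase that uses ultra-long acyl chains. It had 7.56, 13.0 and 7.50 CPM in DKO carcinomas, 7.67, 1.63 and 21.0 CPM in PKO carcinomas, and 15.4 and 4.33 CPM in WT old epidermis. Levels in young epidermis were 14.95, 17.1 and 19.9 CPM in DKO, 9.17, 21.7 and 3.68 CPM in PKO and 14.2, 14.9 and 13.6 CPM in WKO, against 1.75, 4.29 and 2.43 CPM in WT libraries. WT young libraries were all below the DKO and WKO young libraries, and within PKO groups the lowest library lay far below the highest.

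Pnpla1 (ENSMUSG00000043286) encodes the transacylase that places linoleate on the hydroxylated ceramide. It had 5.48, 8.89 and 13.2 CPM in DKO carcinomas, 5.70, 2.90 and 18.5 CPM in PKO carcinomas, and 20.3 and 6.004 CPM in WT old epidermis. For young epidermis the levels were 26.5, 26.9 and 19.2 CPM in DKO, 11.6, 18.1 and 5.02 CPM in PKO and 11.6, 11.4 and 7.42 CPM in WKO, against 2.40, 4.97 and 3.50 CPM in WT libraries. All 9 young knockout libraries were above all WT young libraries, PKO young 3 by a narrow margin.

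Abca12 (ENSMUSG00000050296) encodes the lipid transporter of lamellar granules. It had 21.6, 43.1 and 60.5 CPM in DKO carcinomas, 62.2, 10.2 and 53.3 CPM in PKO carcinomas, and 155 and 33.2 CPM in WT old epidermis. In the young groups they were 296, 271 and 184 CPM in DKO, 43.9, 196 and 12.9 CPM in PKO and 109, 76.2 and 108 CPM in WKO, against 6.33, 13.8 and 12.8 CPM in WT libraries. DKO young libraries were above all WKO young libraries, and these above all WT young libraries.

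Ugcg (ENSMUSG00000028381) encodes glucosylceramide synthase, an enzyme of most cell types. It had 12.6, 12.8 and 19.4 CPM in DKO carcinomas, 12.6, 22.8 and 14.1 CPM in PKO carcinomas, and 13.8 and 14.9 CPM in WT old epidermis. Young epidermis had 35.9, 30.7 and 22.8 CPM in DKO, 9.17, 22.0 and 20.9 CPM in PKO and 14.6, 7.39 and 10.5 CPM in WKO, against 48.0, 26.0 and 23.5 CPM in WT libraries. WT young epidermis had the highest group mean and WKO young epidermis the lowest, while DKO and WT young libraries overlapped.

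Smpd1 (ENSMUSG00000037049) encodes acid sphingomyelinase, which releases ceramide from sphingomyelin in lysosomes and in the barrier. It had 11.3, 9.12 and 15.2 CPM in DKO carcinomas, 6.57, 11.2 and 7.61 CPM in PKO carcinomas, and 9.69 and 9.58 CPM in WT old epidermis. Among young libraries there were 8.67, 4.86 and 11.0 CPM in DKO, 13.4, 12.5 and 35.3 CPM in PKO and 14.8, 14.3 and 13.3 CPM in WKO, against 23.1, 15.7 and 19.8 CPM in WT libraries. DKO young libraries were all below the other young libraries, and the highest level of all was in PKO young 3, the library with the lowest Alox12b of the PKO young group.

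**Figure D1:**
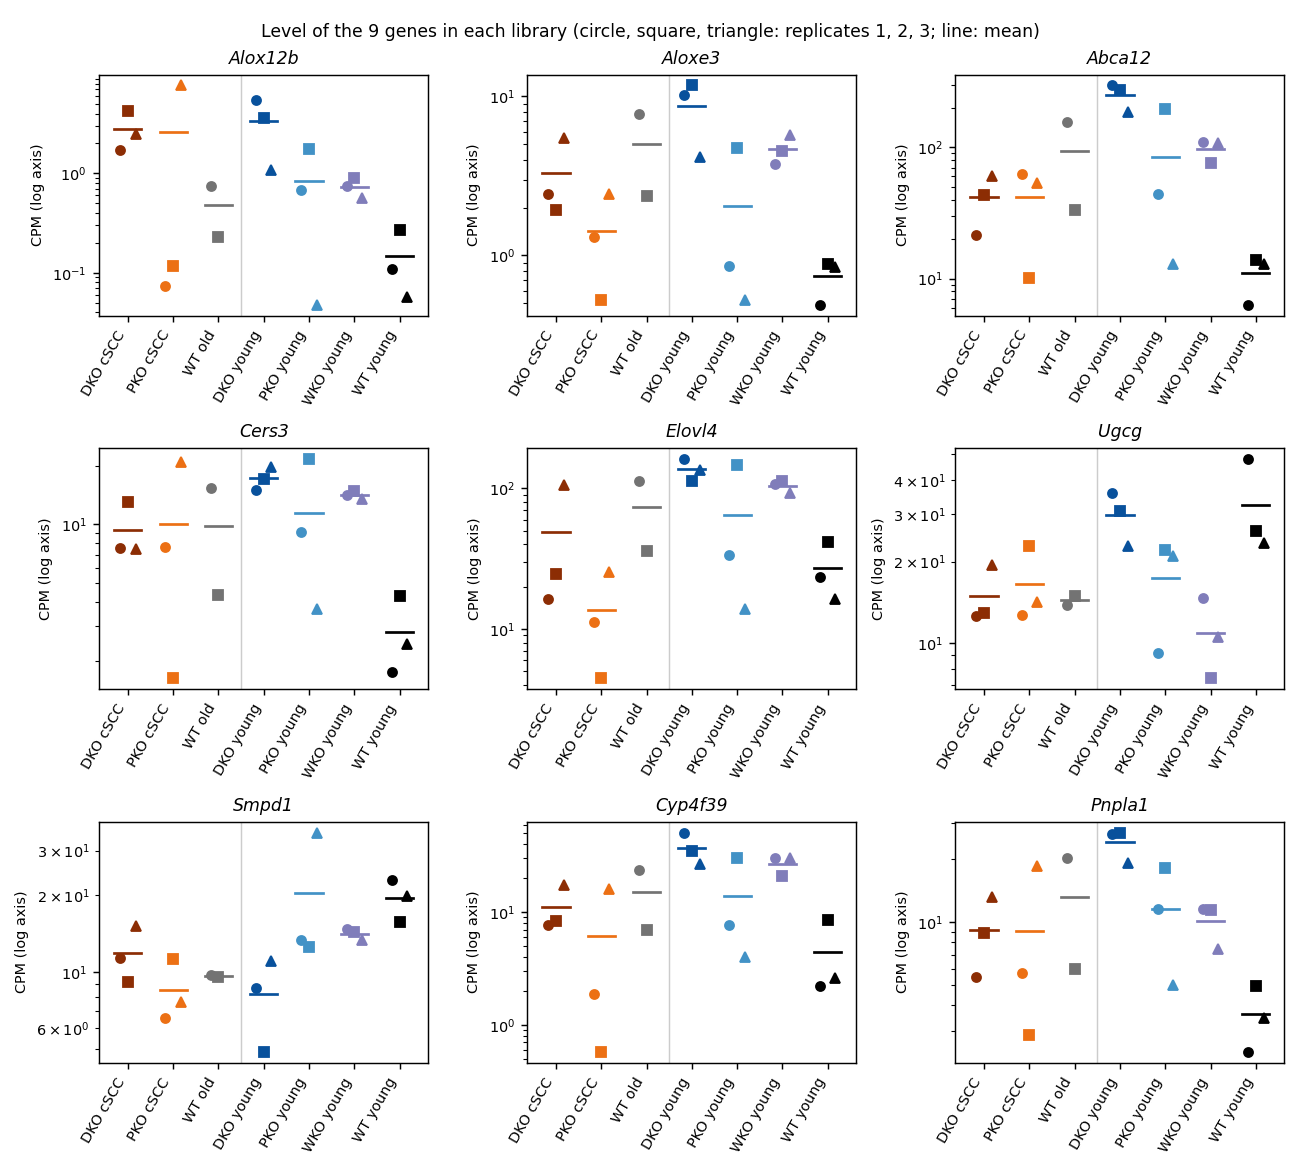
Level of each of the 9 genes in every library, in CPM on a log axis that differs between panels. Points are libraries, marked by replicate number, and lines are group means. DKO young epidermis holds the highest mean for 7 genes, and WT young epidermis the highest for Ugcg, which is lowest in WKO young epidermis.

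The group order was shared by most of the genes, as the plot of levels by library shows. DKO young epidermis had the highest mean for 7 of the 9 genes, all but Ugcg and Smpd1. WT young epidermis had the lowest mean for 6, and for Elovl4 PKO carcinomas were lower still. Of the 54 pairs of groups next to each other in these orders, 48 had overlapping libraries, so most neighbouring ranks were not separated by the spread. The 6 neighbours without overlap were DKO above WKO young epidermis for Abca12 and for Cers3, DKO cSCC above WT young epidermis for the same genes, DKO above PKO young epidermis for Ugcg, and WKO below WT young epidermis for Smpd1. Some of these gaps were narrow. The nearest libraries had 14.95 against 14.92 CPM of Cers3 in DKO and WKO, and 22.83 against 22.03 CPM of Ugcg in DKO and PKO. For Smpd1 they had 14.77 CPM in WKO and 15.73 CPM in WT.

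Between genes, levels were compared per kilobase of annotated exon. Elovl4 averaged 22.1 ± 17.5 CPM per kb over the 20 libraries (SD), against 5.97 ± 5.93 for Abca12, 5.81 ± 4.85 for Cyp4f39, 0.670 ± 0.858 for Alox12b and 0.566 ± 0.505 for Aloxe3. Elovl4 was the most abundant of the 9 per kb in 15 libraries. In the other 5 the leading gene was Ugcg, with 38.6% of the summed level per kb in PKO cSCC 2 and 35.0% in WT young 1, or Smpd1, with 44.5% in PKO young 3 and 30.9% in WT young 3, or Abca12, with 25.1% in PKO cSCC 1.

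Of the 9 genes, all but Ugcg and Smpd1 had higher levels in young epidermis labelled DKO than in WT young epidermis. The targeted genes themselves were not called lower there by edgeR. Their log2 fold changes were -1.64 for Wwox (SE 0.80, adjusted p = 0.147) and -1.93 for Trp53 (SE 0.69, adjusted p = 0.0591). In DKO against WT young epidermis, 7 of the 9 genes rose and 1 fell at an adjusted p under 0.05 in edgeR's quasi-likelihood test with Benjamini-Hochberg adjustment over all genes, where 27.8% of all genes tested were called. The 9 had a median log2 fold change of 2.73, against -0.04 over all genes tested. Abca12 rose 22.7-fold (log2 fold change 4.51, SE 0.84, adjusted p = 0.0073). Alox12b, with its low counts in WT, rose by 4.50 on the log2 scale (SE 1.09, adjusted p = 0.0157) and Aloxe3 by 3.53 (SE 0.78, adjusted p = 0.0114).

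The genes of fatty acid and ceramide synthesis rose as well. Cyp4f39 rose 8.38-fold (log2 fold change 3.07, SE 0.75, adjusted p = 0.0157) and Pnpla1 6.64-fold (log2 fold change 2.73, SE 0.44, adjusted p = 0.0061). Cers3 rose 6.10-fold (2.61, SE 0.55, adjusted p = 0.0102) and Elovl4 5.00-fold (2.32, SE 0.69, adjusted p = 0.0324). Smpd1 fell by 1.27 on the log2 scale (SE 0.41, adjusted p = 0.0420), to a mean of 8.18 ± 3.11 CPM in DKO against 19.5 ± 3.69 CPM in WT (SD, n = 3 each). Ugcg had 29.8 ± 6.59 CPM in DKO and 32.5 ± 13.5 CPM in WT, with no call.

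These calls depended on single libraries for some genes. Without DKO young 1, or without WT young 3, 4 of the 9 genes passed, where 9.31% and 18.7% of all genes did. Without WT young 1, 5 of the 9 and 17.3% of all genes passed. The genes that then missed the threshold were Alox12b, Elovl4, Smpd1 and Cyp4f39, the last only without DKO young 1 or WT young 3. Without the library labelled DKO young 3, 7 of the 9 and 23.4% of all genes passed, and Elovl4 did not (adjusted p = 0.0535). Elovl4 and Smpd1 also missed the threshold without DKO young 2, where 17.1% of all genes passed. Smpd1 alone of the 8 missed it without WT young 2, where 15.9% did.

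WKO young epidermis, with 0.137 to 1.29 CPM of Wwox, had higher levels of Aloxe3, Abca12, Cers3, Cyp4f39 and Pnpla1 and a lower level of Ugcg than WT. In WKO against WT young epidermis, 5 of the 9 genes rose and 1 fell (edgeR, adjusted p under 0.05), where 21.4% of all genes tested were called. All 9 had no overlap between the groups' libraries, as had 51.6% of all genes tested, and their median log2 fold change was 2.30, against -0.03 over all genes. Abca12 rose 8.88-fold (log2 fold change 3.15, SE 0.79, adjusted p = 0.0224), Aloxe3 6.22-fold (2.64, SE 0.76, adjusted p = 0.0348) and Cyp4f39 6.05-fold (2.60, SE 0.73, adjusted p = 0.0334).

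Cers3 rose 5.03-fold (log2 fold change 2.33, SE 0.55, adjusted p = 0.0185) and Pnpla1 2.78-fold (1.48, SE 0.43, adjusted p = 0.0364). Ugcg was the gene that fell, by 1.60 on the log2 scale (SE 0.40, adjusted p = 0.0227), to 10.8 ± 3.64 CPM in WKO against 32.5 ± 13.5 CPM in WT (SD, n = 3 each). Elovl4 missed the threshold, at 1.94 on the log2 scale (SE 0.68, adjusted p = 0.0655). Alox12b and Smpd1 had no call, at 0.736 ± 0.160 CPM in WKO against 0.146 ± 0.113 CPM in WT for Alox12b and 14.1 ± 0.729 CPM in WKO against 19.5 ± 3.69 CPM in WT for Smpd1.

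No member passed without WKO young 2, without WKO young 3 or without WT young 1, where 5.15%, 5.58% and 6.38% of all genes were called. Without WT young 3 only Ugcg passed, with 14.1% of all genes, and without WT young 2 Cers3, Ugcg and Cyp4f39 passed, with 7.18%. Without WKO young 1 all but Pnpla1 of the 6 passed, with 20.3% of all genes. In every one of these fits the 6 genes kept their direction.

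In PKO against WT young epidermis Trp53 itself was not called lower (log2 fold change -1.14, SE 0.67, adjusted p = 0.307); the libraries labelled PKO young 2 and 3 had 21.8 and 19.2 CPM. None of the 9 genes passed the threshold, where 0.00601% of all genes were called by edgeR. An unadjusted p under 0.05 was reached by 6 of the 9 and by 25.1% of all genes, and DESeq2 called 3 of the 9, Abca12, Cers3 and Pnpla1, and 2327 of the 16627 genes tested. The log2 fold changes of the 6 were 2.94 for Abca12 (SE 0.78, adjusted p = 0.0633), 2.02 for Cers3 (SE 0.54, adjusted p = 0.0640), 1.67 for Pnpla1 (SE 0.43, adjusted p = 0.0617), 2.43 for Alox12b (SE 1.07, adjusted p = 0.1881), 1.64 for Cyp4f39 (SE 0.72, adjusted p = 0.1865) and -0.91 for Ugcg (SE 0.39, adjusted p = 0.1810). The PKO young libraries differed widely among themselves: of the 7 genes other than Ugcg and Smpd1, all 7 were highest in replicate 2 and all 7 lowest in replicate 3.

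The same order was seen in the differentiated keratinocyte markers, at 4907, 18060 and 1806 CPM in PKO young replicates 1, 2 and 3, and the reverse in the T cell markers, at 977.4, 357.2 and 4594 CPM. Without the library labelled PKO young 3, 6 of the 9 genes passed (Alox12b, Abca12, Cers3, Elovl4, Cyp4f39 and Pnpla1), and 17.4% of all genes did. No member passed in the fits without PKO young 1, PKO young 2 or any of the WT young libraries. Those fits called 0.00579% to 0.0173% of all genes.

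DKO was compared with PKO young epidermis, which by their labels differ in Wwox. The libraries labelled PKO young 2 and 3 and DKO young 3 kept 19.2 to 21.8 CPM of Trp53, and the last also 7.34 CPM of Wwox. None of the 9 passed, and 0.0% of all genes were called by edgeR. A total of 3 members and 16.5% of all genes had an unadjusted p under 0.05, and DESeq2 called none of the 9 and 1.97% of all genes. On the log2 scale these were Aloxe3, at 2.12 (SE 0.73, adjusted p = 0.2737), Pnpla1, at 1.06 (SE 0.42, adjusted p = 0.2811), and Smpd1, at -1.33 (SE 0.41, adjusted p = 0.2737). Without the library labelled PKO young 2, Aloxe3, Abca12 and Elovl4 passed and 2.33% of all genes did. The comparisons with WT young epidermis share the same 3 WT libraries, so their fold changes are not independent of each other.

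**Figure D2:**
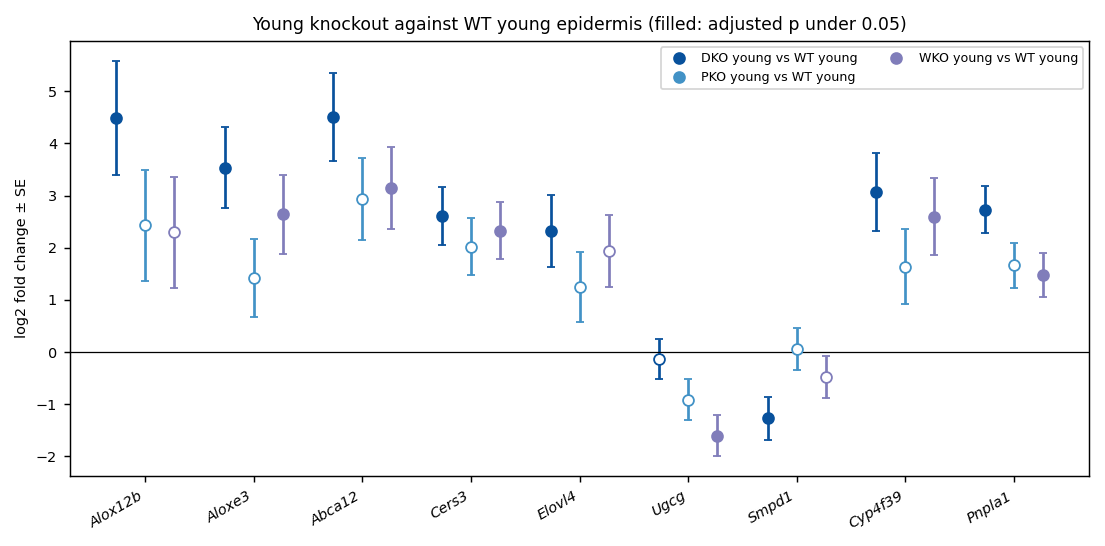
Log2 fold change with SE of each gene in DKO, PKO and WKO against WT young epidermis, from edgeR. Filled points passed an adjusted p of 0.05 and open points did not. DKO has 8 filled points and WKO 6, PKO has none, and Ugcg and Smpd1 lie at or below 0 in DKO and WKO.

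Markers of cell types moved with the same contrasts, where 27.8% of all genes were called in DKO and 21.4% in WKO against WT. All 9 basal keratinocyte markers were called higher in DKO and in WKO young epidermis, with median log2 fold changes of 2.20 and 2.80 against WT. Of the 15 differentiated keratinocyte markers 10 were called higher in DKO and 8 in WKO, with medians of 2.98 and 1.47. All 5 erythrocyte markers were called lower in both, and their sum was 2.54 to 12.5 CPM in DKO and 4.56 to 32.5 CPM in WKO against 829 to 3495 CPM in WT. Melanocyte markers were called lower for 6 of 6 genes in DKO and 5 of 6 in WKO, and T cell markers for 4 of 12 and 0 of 12. The part of these markers in the differences of the 9 genes was not tested.

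**Figure D3:**
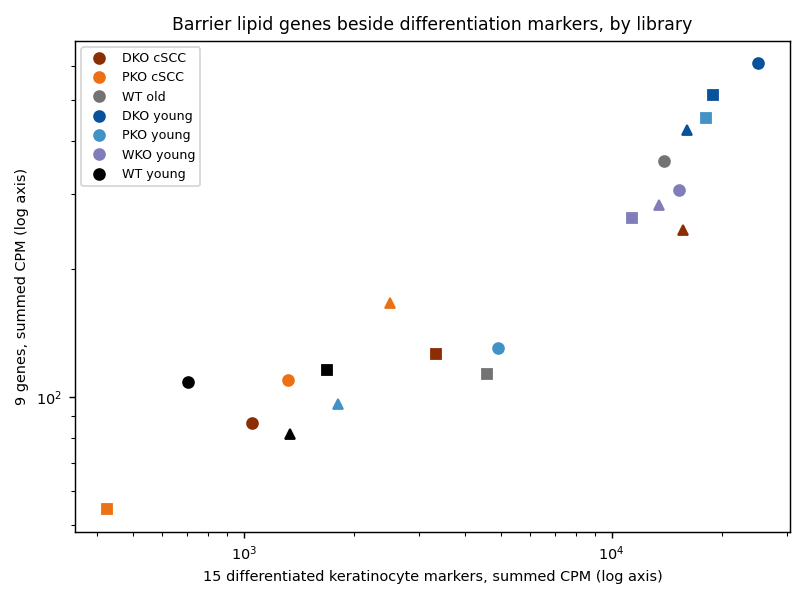
Summed CPM of the 9 genes against summed CPM of the 15 differentiated keratinocyte markers in each of the 20 libraries, on log axes, with the point shape giving the replicate number. DKO young libraries lie at the upper right with 424.1 to 610.1 CPM of the 9 genes, and WT young libraries at the lower left with 81.9 to 115.9 CPM. Abca12 and Elovl4 make up most of the sum in DKO young libraries.

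The 7 genes other than Ugcg and Smpd1 varied together across libraries. Their 21 pairwise Pearson correlations of log2(CPM + 1) over the 20 libraries ran from 0.40 to 0.93, with a median of 0.84. Set against the mean of the other 8 genes, Cyp4f39 reached 0.94 and Alox12b 0.58, while Ugcg was at -0.09 and Smpd1 at -0.50. These correlations describe libraries that share groups and differ in marker levels and depth, and they carry no test. The plot of the 9 genes against the differentiation markers shows both sums rising together. Abca12 and Elovl4 made up most of the sum in DKO young epidermis, with means of 250.3 and 136.5 CPM of 515.7 CPM.

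The genes most like the 9 in their pattern were found by correlation with the mean of their standardized levels over the 20 libraries. The 10 closest were Ceacam19 (0.96), Dsg1b (0.95), Adgrf4, Adgrf2, Ankrd22, Bicdl1, Ptk6, Gltp, Grhl3 and Klk5 (0.92). Dsg1b encodes a desmosomal cadherin of the upper epidermis, Gltp a carrier of glycolipids, Grhl3 a transcription factor required for barrier formation in mice, and Klk5 a protease of the cornified layer. Grhl3 had a mean of 181 CPM in DKO, 63.5 CPM in PKO and 51.4 CPM in WKO, against 13.7 CPM in WT young epidermis.

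Other lipid and barrier genes were set beside the 9 as 6 lists, with 58 genes tested in young epidermis. The list of other ichthyosis and barrier genes also holds genes outside lipid pathways, such as Spink5. In DKO against WT young epidermis 27 of the 58 were called higher and 5 lower, where 27.8% of all genes were called. In WKO against WT, 23 were called higher and 1 lower, where 21.4% of all genes were. In PKO against WT edgeR called 0 of the 58, with 22 at an unadjusted p under 0.05 and 18 called by DESeq2. In DKO against PKO edgeR also called 0, with 12 at an unadjusted p under 0.05 and 1 called by DESeq2. The shares of all genes in DKO against PKO were 0.0%, 16.5% and 1.97%. In the sphingoid base list, 6 of 10 genes rose and 1 fell in DKO, and 5 of 10 rose in WKO. Sptlc3, a subunit of serine palmitoyltransferase, rose by 3.80 on the log2 scale in DKO (SE 0.72, adjusted p = 0.0076) and by 3.29 in WKO (SE 0.70, adjusted p = 0.0151). It averaged 47.4 ± 4.04 CPM in DKO and 33.1 ± 5.84 CPM in WKO, against 3.39 ± 1.84 CPM in WT (SD, n = 3 each). Ormdl2, a regulator that restrains that enzyme, rose by 1.27 on the log2 scale in both.

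Of the 15 genes of fatty acid elongation, activation and hydroxylation, 6 rose and 1 fell in DKO, and 7 rose in WKO. Acsl1, an acyl-CoA synthetase, averaged 174 ± 29.1 CPM in DKO and 119 ± 7.09 CPM in WKO, against 22.0 ± 1.51 CPM in WT (log2 fold changes 2.97 and 2.42, edgeR adjusted p = 0.0063 and 0.0140). Cers2, the ceramide synthase of very long chains in many tissues, fell by 1.72 on the log2 scale in DKO and by 1.37 in WKO, the only call among the 4 other ceramide synthases tested. Among 14 genes of sphingolipid turnover, 5 rose in DKO and 3 in WKO, with median log2 fold changes of 0.71 and 0.48. Of all genes, 27.8% were called in DKO and 21.4% in WKO, so the 3 calls in WKO were no more than that share. Acer1, an alkaline ceramidase of the epidermis, rose by 3.37 in DKO and 3.30 in WKO on the log2 scale.

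Among 9 other ichthyosis and barrier genes tested, 8 rose in DKO and 7 in WKO, where 27.8% and 21.4% of all genes were called. Nipal4, an ichthyosis gene whose protein is a membrane transporter-like protein, averaged 27.3 ± 3.27 CPM in DKO and 17.8 ± 2.05 CPM in WKO, against 3.21 ± 1.24 CPM in WT. Spink5, which encodes an inhibitor of epidermal proteases, averaged 282 ± 108.5 CPM in DKO and 112 ± 35.0 CPM in WKO, against 9.27 ± 2.76 CPM in WT.

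The other lipoxygenase genes did not move as a block. Alox12e, the epidermal lipoxygenase of mice, averaged 732.5 ± 343.3 CPM in DKO and 418 ± 41.4 CPM in WKO, against 55.5 ± 26.8 CPM in WT, and rose by 3.72 and 2.91 on the log2 scale (edgeR adjusted p = 0.0061 and 0.0126). Alox8, which lies in a row with Aloxe3 and Alox12b on mouse chromosome 11 in the RefSeq annotation of GRCm38.p6, fell by 3.92 on the log2 scale in DKO (SE 0.92, adjusted p = 0.0138), to 1.59 ± 0.643 CPM against 23.8 ± 3.22 CPM in WT. Of these 3 neighbours 2 rose and 1 fell in DKO young epidermis. Of 14 transcription factors of barrier formation, 11 rose in DKO, and 8 rose and 1 fell in WKO. The shares of all genes called were 27.8% and 21.4%. Klf4 averaged 816 ± 91.2 CPM in DKO and 499.7 ± 105.7 CPM in WKO, against 119 ± 32.1 CPM in WT, and Ovol1 averaged 503.5 ± 143.4 CPM in DKO against 13.2 ± 6.41 CPM in WT.

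Carcinomas were compared with young epidermis of the same genotype. No age is given for the tumour-bearing mice, so tumour and age cannot be told apart. Fold changes of the 9 genes were negative for 8 in each genotype, and a single gene passed the test in 1 of them. In DKO cSCC against DKO young epidermis, none of the 9 passed by edgeR, where 7.3% of all genes were called. An unadjusted p under 0.05 was reached by 3 of the 9 and by 24.7% of all genes, and DESeq2 called 1, Abca12, and 2716 of the 18164 genes tested. With only these groups fitted, Abca12 and Cyp4f39 passed, with 8.1% of all genes. The log2 fold changes of the 3 were -2.58 for Abca12 (SE 0.84, adjusted p = 0.0719), -0.999 for Ugcg (SE 0.37, adjusted p = 0.1115) and -1.39 for Pnpla1 (SE 0.62, adjusted p = 0.1766). Abca12 averaged 41.8 ± 19.5 CPM in DKO carcinomas and 250 ± 58.4 CPM in DKO young epidermis, with no overlap. The 9 fold changes had a median of -1.40 against 0.05 over all genes, and 6 of the 9 genes had no overlap between the groups, as had 30.3% of all genes.

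In PKO cSCC against PKO young epidermis, 1 of the 9 genes fell and none rose, where 11.5% of all genes were called by edgeR. Smpd1 was that gene, at -1.27 on the log2 scale (SE 0.38, adjusted p = 0.0421) and 8.46 ± 2.43 CPM in carcinomas against 20.4 ± 12.9 CPM in young epidermis (SD, n = 3 each). The call was lost without the library labelled PKO young 3, where the fold change was -0.62 (adjusted p = 0.2443), without PKO cSCC 1 (adjusted p = 0.1263) and without PKO cSCC 3 (adjusted p = 0.1037), and when only the groups compared were fitted (adjusted p = 0.229). For Elovl4 the estimate was -2.23 on the log2 scale (SE 0.84, adjusted p = 0.0949), with 13.7 ± 10.7 CPM in carcinomas and 64.8 ± 71.4 CPM in young epidermis. Without PKO cSCC 3, Cyp4f39 passed instead of Smpd1, with 8.01% of all genes. The signs of Aloxe3, Abca12, Cers3, Ugcg, Cyp4f39 and Pnpla1 turned without the library labelled PKO young 2.

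Against WT old epidermis no member passed in either kind of carcinoma. For PKO cSCC, edgeR called 0.0121% of all genes and none of the 9. Only Elovl4 had an unadjusted p under 0.05 (log2 fold change -2.36, SE 0.96, adjusted p = 0.1598), as had 27.7% of all genes, and DESeq2 called none of the 9 and 18.3% of all genes. For DKO cSCC, edgeR called 0.0% of all genes, none of the 9 had an unadjusted p under 0.05, against 14.5% of all genes, and DESeq2 called none of them and 5.09% of all genes. The WT old group has 2 libraries that differed by 3.15-fold to 4.67-fold in the 7 genes other than Ugcg and Smpd1, replicate 1 being the higher for all 7, and their differentiated keratinocyte markers summed to 13860 and 4587 CPM.

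Between DKO and PKO carcinomas no member passed by edgeR, with 0.00605% of all genes called, no member at an unadjusted p under 0.05 (8.1% of all genes) and none called by DESeq2 (1.21% of all genes). The SEs of these log2 fold changes ran from 0.33 for Ugcg to 1.45 for Alox12b. The PKO carcinomas were uneven: of the 7 genes, 6 were highest in replicate 3 and 6 lowest in replicate 2. In DKO carcinomas 5 of the 7 were highest in the library labelled DKO cSCC 3, whose differentiated keratinocyte markers summed to 15610 CPM against 1056 and 3328 CPM in DKO cSCC 1 and 2. The same sum was 1319, 426.6 and 2505 CPM in PKO carcinomas, with 2, 1 and 0 of the 15 markers at 0. Without the libraries labelled DKO young 3 and DKO cSCC 3, no member passed in DKO cSCC against DKO young epidermis, WT old epidermis or PKO cSCC. Of all genes, 7.76%, 0.0% and 0.00617% were then called, in that order.

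**Figure D4:**
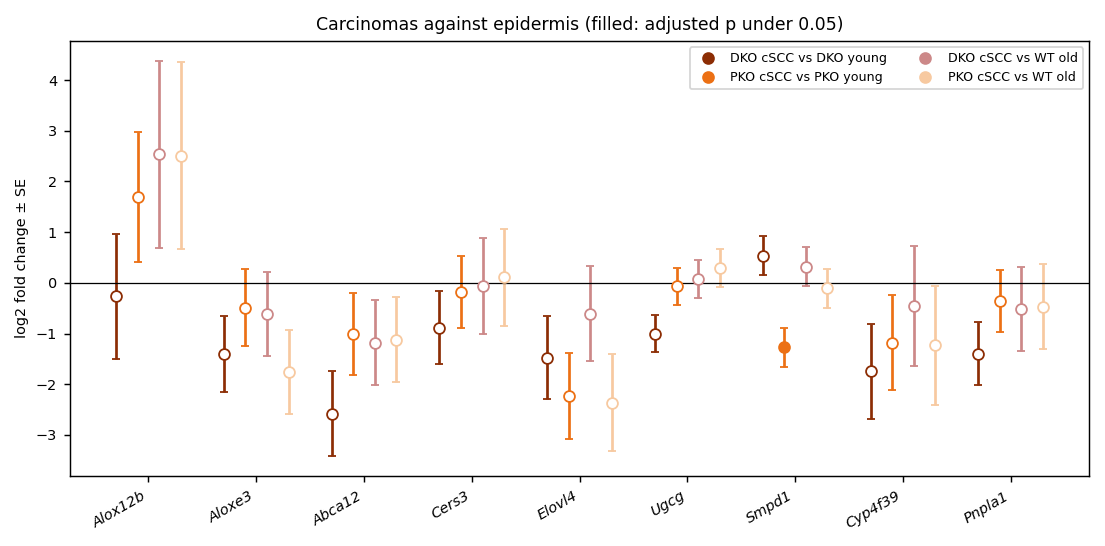
Log2 fold change with SE of each gene in DKO and PKO carcinomas against young epidermis of the same genotype and against WT old epidermis, from edgeR. The filled point, Smpd1 in PKO carcinomas against PKO young epidermis at -1.27, is the single one past an adjusted p of 0.05.

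The DKO to PKO fold change in carcinomas was also set against that in young epidermis, as a difference of both, with the limits of the libraries labelled above. None of the 9 passed, with 0.0% of all genes called by edgeR. Smpd1 was the 1 member with an unadjusted p under 0.05, with a difference of 1.81 on the log2 scale (SE 0.54, edgeR adjusted p = 0.2409). With single libraries left out, this difference ran from 1.16 to 2.08 (edgeR adjusted p = 0.118 to 0.506). Smpd1 was also the 1 member called by DESeq2 with all libraries (adjusted p = 0.0487). Of all genes, 12.6% had an unadjusted p under 0.05 and DESeq2 called 2.64%. The mean of Smpd1 was 11.88 ± 3.06 CPM in DKO and 8.46 ± 2.43 CPM in PKO carcinomas. In young epidermis it was 8.18 ± 3.11 CPM in DKO and 20.4 ± 12.9 CPM in PKO.

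In carcinomas against young epidermis, 62 genes of the 6 lists of lipid and barrier genes were tested. Of these, edgeR called 6 lower in DKO cSCC against DKO young epidermis, where 7.3% of all genes were called. It called 7 lower in PKO cSCC against PKO young epidermis, where 11.5% were. None of the 62 was called higher, and when only the PKO groups were fitted, 7 genes were called in the whole table. Sgms1, a sphingomyelin synthase, averaged 35.2 ± 3.22 CPM in DKO carcinomas and 112 ± 22.3 CPM in DKO young epidermis (log2 fold change -1.67, SE 0.31, adjusted p = 0.0079). Col4a3bp, the ceramide transfer protein, was lower in both, with log2 fold changes of -1.37 in DKO and -0.86 in PKO. Sptlc3 averaged 0.544 ± 0.432 CPM in PKO carcinomas and 24.6 ± 23.4 CPM in PKO young epidermis (log2 fold change -5.43, SE 0.93, adjusted p = 0.0045). Of the 14 barrier transcription factors, 7 were called lower in DKO carcinomas, and 8 lower and 1 higher in PKO carcinomas, with Klf4 and Gata3 lower in both. The single factor that was higher was Ppard.

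Markers of several cell types also moved in carcinomas against young epidermis, where 7.3% of all genes were called in DKO and 11.5% in PKO. When only the PKO groups were fitted, 7 genes were called in the whole table. Of the 15 differentiated keratinocyte markers, 1 was called lower in DKO carcinomas, with 6 positive fold changes and a median of -0.53, and 3 were called lower in PKO carcinomas, with 4 positive and a median of -1.40. The single call in DKO was Krt77, which was also called in PKO. T cell markers were called lower for 12 of 12 genes in PKO carcinomas (median log2 fold change -8.55) and for 1 of 12 in DKO carcinomas (median -2.41). Their sum was uneven in PKO young replicates 1, 2 and 3, at 977.4, 357.2 and 4594 CPM. Hair follicle markers were called lower for 7 of 12 and erythrocyte markers for 4 of 5 in PKO carcinomas, and for none in DKO carcinomas. Endothelial and mural markers had a median of 3.40 in DKO carcinomas, with 1 of 8 called higher. The part of these markers in the differences of the 9 genes and of the lists was not tested.

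Within the lipoxygenase pair, the balance of Alox12b and Aloxe3 differed between libraries, a feature chosen after its values were seen and given without a test. In all 14 epidermis libraries Alox12b had fewer counts than Aloxe3, for example 82 against 153 in DKO young 1 and 13 against 66 in WKO young 2. In 2 of the 6 carcinomas it had more, with 55 against 25 counts in DKO cSCC 2 and 133 against 42 in PKO cSCC 3. Per kb of exon, Alox12b exceeded Aloxe3 in 4 of the 6 carcinomas, by 8.33 times in PKO cSCC 3 and by 1.83, 5.79 and 1.21 times in DKO carcinomas, and in 2 of the 14 epidermis libraries. PKO cSCC 1 and 2, with 1 and 2 counts of Alox12b, did not share this. The joined annotated exons span 2431 bases for Alox12b and 6397 for Aloxe3, so scaling by length raises the ratio in every library. Whether that scaling applies to these counts was not tested.

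**Figure D5:**
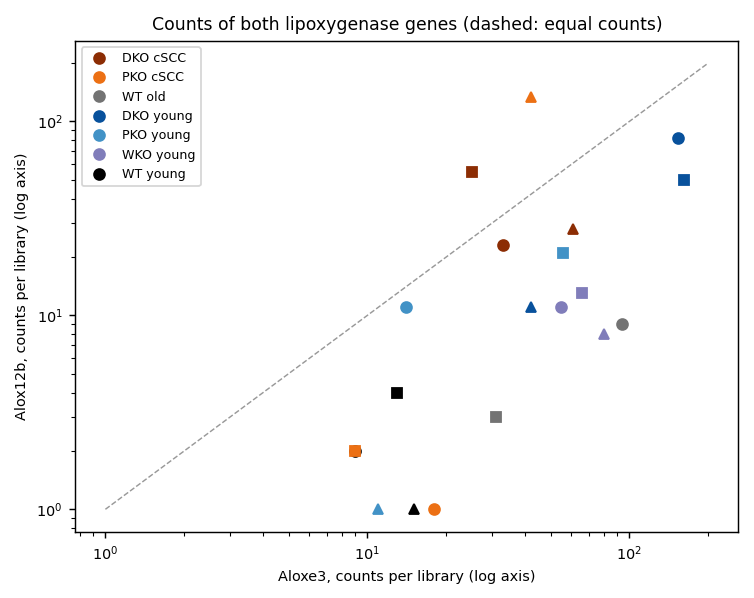
Counts of Alox12b against counts of Aloxe3 in each library, on log axes, with a dashed line at equal counts and the point shape giving the replicate number. PKO cSCC 3 and DKO cSCC 2 lie above the line, and all 14 epidermis libraries lie below it. PKO cSCC 2 and WT young 1 share a point, at 2 and 9 counts.

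Age was compared in wild-type epidermis. In WT old against WT young epidermis none of the 9 passed by edgeR, where 1.99% of all genes were called. An unadjusted p under 0.05 was reached by 7 members and by 22.9% of all genes, and DESeq2 called 4, namely Aloxe3, Abca12, Cers3 and Pnpla1, and 12.4% of all genes. The edgeR log2 fold changes were 3.12 for Abca12 (SE 0.89, adjusted p = 0.0783), 2.78 for Aloxe3 (SE 0.83, adjusted p = 0.0894), 1.88 for Pnpla1 (SE 0.55, adjusted p = 0.0826) and 1.83 for Cers3 (SE 0.65, adjusted p = 0.1318). Cyp4f39 had 1.80 (SE 0.80, adjusted p = 0.2084), Ugcg -1.17 (SE 0.43, adjusted p = 0.1446) and Smpd1 -1.01 (SE 0.46, adjusted p = 0.2140). With single libraries left out, the log2 fold changes ran from 1.60 to 3.84 for Abca12, 1.67 to 3.39 for Aloxe3, 0.73 to 2.503 for Pnpla1, 0.63 to 2.46 for Cers3 and 0.66 to 2.65 for Cyp4f39.

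The 6 lists of lipid and barrier genes gave 4 calls among 61 genes with age, all higher in WT old epidermis, where 1.99% of all genes were called. All 4 were lost without WT young 1, without WT young 2 or without WT young 3, where no gene of the table was called. They were Acsl1, at 185 ± 4.38 CPM in WT old against 22.0 ± 1.51 CPM in WT young epidermis (log2 fold change 3.08, adjusted p = 0.0279), Asah2, a neutral ceramidase (1.76, adjusted p = 0.0352), Lipm, an epidermal lipase (3.84, adjusted p = 0.0331), and Abhd5, a lipase cofactor that works with Pnpla1 (1.36, adjusted p = 0.0471). The T cell markers summed to 183.9 and 477 CPM in WT old against 2283 to 3149 CPM in WT young epidermis, and the differentiated keratinocyte markers to 13860 and 4587 CPM against 704.7 to 1690 CPM. Their part in the difference with age was not tested.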

How the data were processed

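RNA of cells sorted for tdTomato was sequenced from 5 ng of input, per the labels' protocols. The authors deposited 1 table of estimated counts per gene for 20 libraries; its values are whole numbers, and the 37 values of 7 or more digits are all multiples of 10. Per the submitters' processing notes, which state no role or order, the names recorded are mm39, Salmon 0.13.1, Trim Galore 0.4.1, DESeq2 1.28.1 and FastQC 0.11.5. The sources used here do not say if counting relied on molecular identifiers. All columns matched a sample.

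Counts were tested in R 4.3.3 with edgeR 4.0.16 (TMM scaling, filterByExpr, quasi-likelihood F test, Benjamini-Hochberg adjustment over all genes tested, threshold 0.05), without a replicate block. Each SE of a log2 fold change was derived from that test, as the absolute log2 fold change divided by the square root of F. It is an approximation, and a rough one at low counts. Young epidermis was fitted on 12 libraries and 16627 genes, carcinomas with WT old epidermis on 8 and 16526, old with young epidermis on 14 and 17622, and carcinomas against young epidermis on 20 and 18164. Alternatives were RLE scaling, no filter, the replicate block, DESeq2 1.42.0 and other libraries in the fit. Each library, and both doubted DKO libraries together, were also left out. The fits were run on simulated counts with known changes and the same dispersion for every gene. That setting cannot show how they behave on libraries as uneven as these. Symbols and exon lengths came from a GENCODE annotation of build GRCm38, used for names and lengths alone, and promoters from RefSeq.

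The text names the 9 genes always, their fold changes mainly where the unadjusted p was under 0.05, at most 3 called genes of each list and comparison by smallest p, and the 10 genes most alike. Members and lists were chosen with earlier results of these data known. The spread between replicates rests on 2 or 3 libraries a group, and levels of a few counts carry counting error besides.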

Additional observations from a re-analysis of the deposited data

How the results depend on the processing

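No fold change of the 38 gene and comparison values with an unadjusted p under 0.05 turned sign: of 431 values under the alternatives, 351 stayed on their side of the threshold, 52 lost the call and 28 gained it. Counts of calls moved more. Mainly the larger moves are listed, and a setting not named can still differ from the main counts, given in parentheses. In WKO against WT young epidermis (3563 genes, 6 of the 9) they were 5219 genes and 7 of the 9 with DESeq2. The replicate block gave 2355 genes, and all 20 libraries in the fit gave 2199 and 3 of the 9. Counts with single libraries left out were 893 to 3513 genes and 0 to 5 of the 9. In PKO against WT young epidermis (1 gene, 0 of the 9) they were 3 with RLE scaling, 990 and 3 of the 9 with no filter, 2327 and 3 with DESeq2, 3 with all 20 libraries, and 1 to 2998 and 0 to 6 with libraries left out. In DKO against WT young epidermis (4629, 8) there were 5827 with DESeq2 and 3145 and 7 with all 20 libraries. Leaving libraries out gave 1609 to 4045 and 4 to 7. In DKO against PKO young epidermis (0, 0) DESeq2 gave 328, and leaving libraries out 0 to 403 and 0 to 3. In PKO cSCC against WT old epidermis (2, 0) there were 2285 and 1 with no filter, 0 with the replicate block, 3031 with DESeq2, 3876 with all 20 libraries and 0 to 67 with libraries left out. In DKO cSCC against WT old epidermis (0, 0) there were 853 with no filter, 841 with DESeq2, 788 with all 20 libraries and 0 to 2 with libraries left out. In DKO against PKO cSCC (1, 0) there were 375 with no filter, 2 with the replicate block, 200 with DESeq2, 2 with all 20 libraries and 0 to 1 with libraries left out. In WT old against WT young epidermis (351, 0) there were 1068 and 3 with no filter, 0 with the replicate block, 2186 and 4 with DESeq2, 154 with all 20 libraries and 0 to 434 with libraries left out. In PKO cSCC against PKO young epidermis (2087, 1) there were 2 of the 9 with no filter, 0 with the replicate block, 3440 and 2 with DESeq2, 7 and 0 with only these groups fitted, and 1144 to 2041 and 0 to 1 with libraries left out. In DKO cSCC against DKO young epidermis (1326, 0) there was 1 of the 9 with no filter, 2716 and 1 with DESeq2, 2 of the 9 with only these groups fitted, and 265 to 1800 genes with libraries left out. For the difference in the Wwox effect (0, 0) there were 93 with no filter, 480 and 1 with DESeq2, and 0 to 11 with libraries left out. The cause of these moves was not tested. Same-numbered libraries correlated by -0.27 to 0.31 in their deviations from the group means, and in 0 comparisons was every pair over 0.1. The labels give no shared litter, day or batch, and correlations over 2 or 3 libraries a group cannot exclude one. With the replicate block the edgeR adjusted p of Smpd1 in PKO cSCC against PKO young epidermis was 0.0689. Levels of 1 to 4 counts, such as Alox12b in WT young epidermis, limit what this depth shows.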
